A study of Melianthus elongatus with 11 samples.

Results

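The contigs described here were those at their highest in the libraries coded 1 of Melianthus minor (filed as Melianthus elongatus), a shrub whose nectar is black. A contig is an assembled transcript sequence, named here after its closest Arabidopsis gene. The members were chosen by their values: a normalised read count of 20 or more in all 3 code 1 libraries, and means in code 0, code 2 and code L each at most 1/3 of the code 1 mean. Of 68651 contigs in the authors' table, 8602 met the first condition and 140 met both, 1.63% of the 8602. Code 1 against any other code was therefore used by the choice and is given only as a description, with no test.

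The RNA was from leaf and nectary (the tissue that makes nectar) of shrubs grown outdoors in an arboretum, and no treatment or genotype is named. The 11 libraries fall into code 0 (0-A, 0-B), code 1 (1-A, 1-B, 1-C), code 2 (2-A, 2-B, 2-C) and code L (L-A, L-B, L-C). The meaning of the codes and the number of plants per library are not given in the sources used here. Tissue and stage as filed cross the codes: 0-A, 0-B and 1-A are filed as mature leaf, 1-B and 1-C as presecretory nectary, code 2 as secretory nectary and code L as postsecretory nectary, and the title of 2-A says presecretory. The summed value of a list of photosynthesis and Calvin cycle genes was 5612, 5757 and 5785 in 0-A, 0-B and 1-A, the libraries filed as leaf, and 58097 to 96224 in code L. The summed value of regulators of nectary and flower development was 195 to 274 in code L and 5047 to 11217 in the other 8 libraries. These sums go against the filed tissues, so codes are given below without a tissue or stage. Column totals ran from 631454 to 1168305, the depth in reads is unknown, and code L had the lowest totals.

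As background, nectaries load sugar, convert it and export it with water, proteins and other metabolites, and much of this work needs energy from sugar breakdown. Pyruvate decarboxylase and alcohol dehydrogenase lead sugar carbon to ethanol when respiration is limited, and asparagine synthetase packs nitrogen into asparagine when carbon is short. Pollen, which forms in the anthers beside nectaries in many flowers, carries its own pectin-modifying enzymes and arabinogalactan proteins. In bulk RNA, fewer cells of a type and less of an RNA per cell cannot be told apart.

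Together the 140 members summed to 23732, 15721 and 26220.1 in 1-A, 1-B and 1-C, which was 2.16%, 1.57% and 2.24% of those columns. Their sums for the code 2 libraries were 1818 (2-A), 4739 (2-B) and 6727 (2-C). The sum was 1453 and 1298 in 0-A and 0-B, and 593 to 1143 in code L. The next highest code by mean was code 2 for 111 members, code 0 for 22 and code L for 7. By single library, 2-C was the highest outside code 1 for 68 members and 2-B for 50.

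The peak was not complete for every member. In 34 of the 140, at least 1 library of another code was at or above the lowest code 1 library, and this was 2-C for 23 members. When the highest library of each other code, in place of its mean, had to lie at or below 1/3 of the code 1 mean, 34 members were left. The code 1 libraries also differed among themselves, with a median ratio of highest to lowest of 1.96 over the members, against 1.35 over all 8602 contigs at 20 or more in code 1. Library 1-B was the lowest of code 1 for 89 members, and 1-C the highest for 74.

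**Figure D1:**
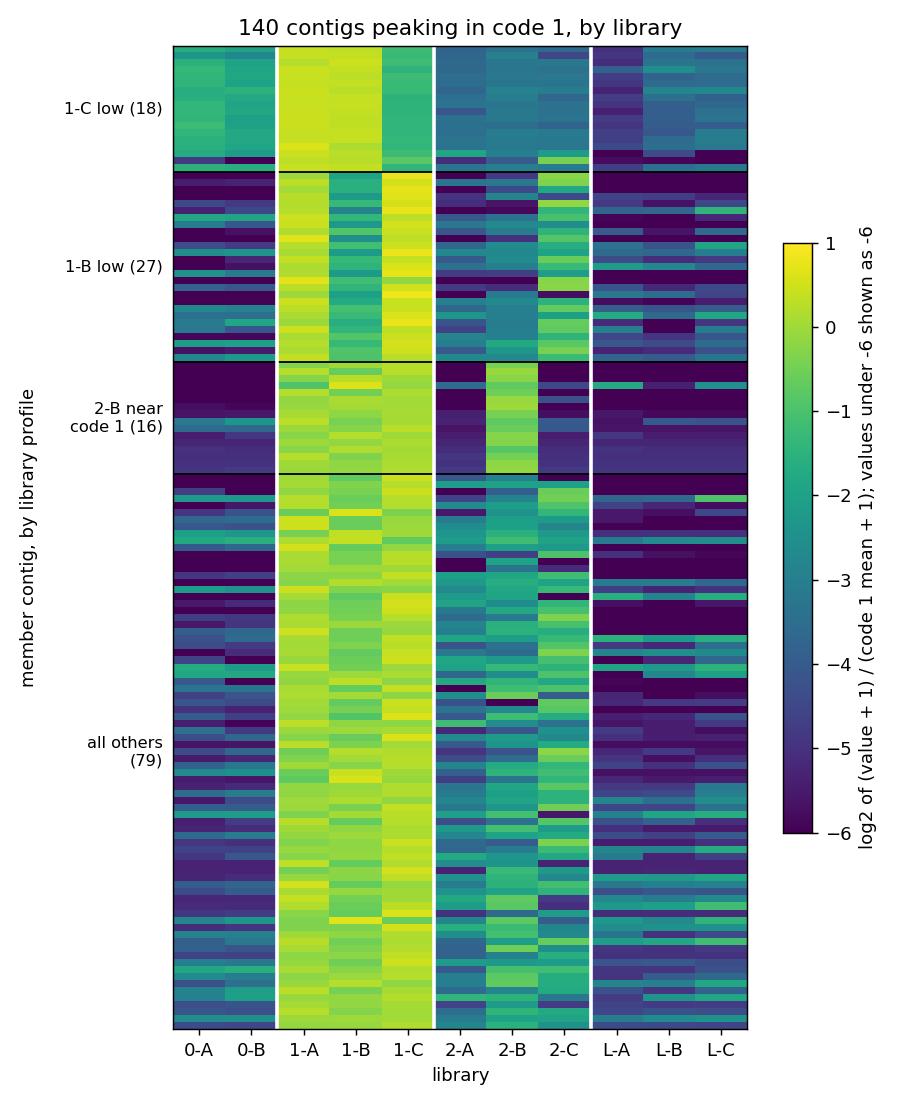
Each row is 1 of the 140 member contigs and each column 1 library, and the colour is log2 of (value + 1) over (code 1 mean + 1), on a scale that ends at -6. Rows are grouped by library profile: 18 contigs low in 1-C, 27 low in 1-B, 16 with 2-B near code 1, and the other 79.

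Both edges of the choice held contigs much like those kept. Just inside the level of 20 were a contig like lipoxygenase 1, with a lowest code 1 value of 20.3 (Mm207981), and one like the glutathione S-transferase TAU 20, at 20.8 (Mm333334). Just outside were a pectate lyase contig at 19.9 (Mm48400) and a contig like the MADS-box factor AGAMOUS-like 62 at 19.8 (Mm75053). Nearest inside the ratio were a splicing factor contig and the contig like arabinogalactan protein 6, whose highest other code mean was 33.30% and 33.28% of the code 1 mean (Mm255370 and Mm129086). Nearest outside were a zinc finger contig at 33.39% and an auxin efflux carrier contig at 33.55% (Mm4048 and Mm12623).

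The 3 highest members carried much of the code 1 sum. The contig like aldehyde oxidase 1, a molybdenum enzyme that oxidises aldehydes, was listed at 0 in both code 0 libraries and was at 3213, 1929.9 and 4409.7 in 1-A, 1-B and 1-C (Mm114371, AT5G20960). It was at 184, 421 and 15.3 in 2-A, 2-B and 2-C, and at 9.22, 5.36 and 12.02 in code L. It alone made up 14.5% of the summed code 1 means, and the 10 highest members 45.1%. A contig with no Arabidopsis match was at 1348 ± 259 (SD, n = 3) in code 1 and at 331 ± 10.1 (SD, n = 3) in code 2 (Mm55672). Its values of 319.7, 336 and 338 in 2-A, 2-B and 2-C lay close together, all below its lowest code 1 library.

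Glutathione S-transferases, which join glutathione to reactive or foreign compounds, gave 3 members. The contig like GSTU8 was at 1108, 296 and 1970.2 in 1-A, 1-B and 1-C and at 14.9, 38.03 and 945 in 2-A, 2-B and 2-C (Mm31745, AT3G09270). In 2-C it was above 1-B, so codes 1 and 2 overlapped for it. The contigs like GSTU20 were at 464, 154 and 752 in code 1 and 1.002, 19.8 and 131 in code 2 (Mm281501, AT1G78370), and at 28.4, 20.8 and 51.3 and 0.095, 1.86 and 6.77 (Mm333334). For both, every code 1 library was above every other library.

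Pyruvate decarboxylase turns pyruvate into acetaldehyde. A contig of that family was listed at 0 in 0-A and 0-B, was at 379, 69.3 and 503 in 1-A, 1-B and 1-C, at 9.42, 44.9 and 13.7 in 2-A, 2-B and 2-C and at 12.3, 11.1 and 7.37 in code L (Mm14880, AT4G33070). A second contig of the same locus was at 97.1, 23.6 and 176 in code 1 and at no more than 10.9 elsewhere (Mm308096). The contig like pyruvate decarboxylase 2 was at 22.7 and 10.2 in code 0, 259, 39.1 and 277 in code 1 and 19.8, 28.4 and 32.1 in code 2 (Mm14272, AT5G54960). In all 3, 1-B was the low library of code 1, yet it stayed above every library outside code 1. The contig like alcohol dehydrogenase 1, which reduces acetaldehyde to ethanol, was at 60.6, 37.5 and 51.7 in code 1 but at 29.3 in 2-B (Mm204470, AT1G77120). The contig like GAPC2, a cytosolic glyceraldehyde-3-phosphate dehydrogenase of glycolysis, was at 1222, 337 and 1438 in code 1 and 100.01, 108 and 784 in code 2 (Mm1300, AT1G13440).

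Other members had the same order of libraries. The LOB domain factor LBD41 contig was at 132, 25.3 and 197 in 1-A, 1-B and 1-C, 20.8 and 12.7 in code 0 and 3.29, 3.599 and 27.4 in code 2 (Mm113423, AT3G02550). The contig like the wound-responsive family gene AT4G10265 was at 313, 35.9 and 449.8 in code 1 and 1.27, 3.61 and 101 in code 2, with 98.8 in L-C (Mm224275). That like SIMILAR TO RCD ONE 5, a relative of the stress regulator RCD1, was at 164, 33.4 and 268 in code 1 and 22.7, 22.4 and 40.04 in code 2 (Mm8773, AT5G62520). In each of these, 1-A and 1-C were several times above 1-B, and 2-C or L-C reached above 1-B in Mm113423, Mm224275 and Mm8773. These contigs were put side by side after their values were seen, and they are no tested set.

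Nitrogen and amino acid genes gave another run of members. Asparagine synthetase transfers nitrogen from glutamine to aspartate, and 4 members resembled it. The highest, like ASN1, was at 371, 179 and 249.7 in 1-A, 1-B and 1-C, 19.7 and 22.3 in code 0, 31.5, 63.1 and 57.3 in code 2 and 4.805, 0.832 and 0.722 in code L (Mm135597, AT3G47340). A second ASN1-like contig was at 306, 144 and 212 in code 1 and 35.4, 52.5 and 30.5 in code 2 (Mm101995), and the ASN3-like contig at 303, 132 and 192 and 25.2, 50.1 and 44.2 (Mm66734, AT5G10240). In these 3, 1-A was highest and 1-B lowest in code 1, and how reads were split among contigs this similar was not tested. The remaining ASN1-like contig behaved otherwise: it was listed at 0 in 0-A, 0-B, 2-A and 2-B and was at 91.2 in 2-C (Mm46162). A contig like the lysine-degrading enzyme LKR/SDH was at 34.6, 20.9 and 30.2 in code 1 (Mm55990, AT4G33150), and an amino acid transporter contig at 62.5, 85.8 and 60.03 (Mm7138, AT3G56200).

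The contig like SEED IMBIBITION 2, an alpha-galactosidase that acts on raffinose sugars, was at 357, 100.1 and 319.7 in 1-A, 1-B and 1-C, 75.6 and 68.1 in code 0 and 14.4, 24.5 and 125 in code 2 (Mm4191, AT3G57520). A tonoplast monosaccharide transporter contig was at 32.5, 23.9 and 35.2 in code 1 and 20.6 in 2-B (Mm44056, AT3G51490). The members like alpha-galactosidase 2 were at 27.4, 32.7 and 54.99 in code 1 (Mm333609) and 25.4, 24.8 and 48.2 (Mm166904, both AT5G08370). The 1 member among 103 contigs of a list of sugar export and cleavage genes was like sucrose synthase 4, at 25.4, 28.2 and 34.6 in code 1 (Mm348394, AT3G43190). It was a minor contig of its locus: the contigs of AT3G43190 summed to 3793, 2124 and 3782 in 1-A, 1-B and 1-C and to 3435, 4070.2 and 2812 in code 2. None of the 34 contigs of this list at 20 or more in code 1 was a member apart from it.

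Transporters and channels, by words in the description, made up 9 members (6.43%, against 2.58% of the 8602 contigs at 20 or more in code 1). Transporters described in other words were not counted, among them the MRP4-like contig below and a contig of the transporter locus AT5G62680 (Mm3299). Contigs like the sulfate transporter SULTR3;1 were at 331, 116 and 419 in code 1 and 7.62, 4.82 and 265 in code 2 (Mm138941, AT3G51895), and at 125, 37.5 and 146 and 2.69, 1.99 and 87.5 (Mm34642). A contig like SULTR3;2 was at 68.8, 41.5 and 90.6 in code 1 and 2.58, 0 and 40.6 in code 2 (Mm249540, AT4G02700). In all 3 of these 2-C was high and 2-A and 2-B were low. The contig like the ABC transporter MRP4 was at 121, 108 and 109.8 in code 1 and 15.5, 37.8 and 54.2 in code 2 (Mm9233, AT2G47800). All contigs of the MRP4 locus summed to 274, 212 and 255 in code 1 and 152, 243 and 219 in code 2, so the codes overlapped. A contig of the PIN3 locus, an auxin efflux carrier, was at 28.6, 72.8 and 44.98 in code 1, highest in 1-B (Mm249601, AT1G70940).

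Transcription factors gave 7 members by description (5.00%, against 3.57% of the 8602). The contig like HOMEOBOX 7, a factor known for its response to drought and abscisic acid, was at 207, 481 and 238 in 1-A, 1-B and 1-C and 5.79, 57.4 and 120.00 in code 2 (Mm110395, AT2G46680). The NAC100-like contig was at 119.8, 26.2 and 117 in code 1 and 10.4, 13.2 and 30.9 in code 2 (Mm34930, AT5G61430). The contig like TCP1, a TCP factor, was at 27.7, 23.9 and 27.6 in code 1 and above 1 elsewhere only in 2-B, at 5.19 (Mm259841, AT1G67260). A contig described as an HTH-type regulator was at 53.4, 54.9 and 59.3 in code 1 and 0.564, 2.19 and 9.202 in code 2 (Mm292938, AT2G23690). The last pair had among the 8 largest ratios of code 1 to the next code. That set also held the contig like an RNA-binding protein, at 211, 202 and 205 in code 1 and 1.804, 20.02 and 4.75 in code 2 (Mm326622, AT1G78260).

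Glycosyltransferases, which attach sugars to phenolics and hormones among others, gave 4 members from 2 loci. These were at 208 ± 45.5 (SD, n = 3) and 179 ± 73.8 (SD, n = 3) for AT3G21760 (Mm17598 and Mm18068), and at 158 ± 76.3 (SD, n = 3) and 76.6 ± 27.5 (SD, n = 3) for AT3G21790 (Mm40136 and Mm21019). All 4 were at most 6.75 in code 0. A contig like shikimate kinase 2, of the pathway that gives aromatic compounds, was at 84.95, 22.8 and 77.1 in code 1 and 37.00 in 2-C, above 1-B (Mm406526, AT4G39540). Of the contigs described as cytochrome P450 enzymes 25 were at 20 or more in code 1, and 0 were members. With members at 1.63% of all contigs at that level, a count of 0 is near that share. The ribosome and translation class, by words in the description, made up 10.5% of the 8602 contigs but 3.57% of the members, 5 contigs. Its words also took in a contig described as a transcription elongation factor (Mm12288, AT5G47920).

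Cell wall proteins were the most frequent class, with 12 members (8.57%, against 1.92% of the 8602), and 7 of them shared 1 library profile. These class shares are descriptions of a set chosen by level, and no enrichment was tested. In 18 members, 1-C was under 1/2 of both 1-A and 1-B, and in 17 of these code 0 was the next highest code. Relative to its code 1 mean, the median contig of these 18 was at 134%, 128% and 38.2% of it in the libraries 1-A, 1-B and 1-C. It was at 34.7% and 26.5% in 0-A and 0-B. Its range was 8.11% to 10.0% over the code 2 libraries and 2.55% to 8.80% over those of code L. Code 0 and 1-C thus stood nearly level in this profile.

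AGP6 is an arabinogalactan protein known from pollen, and the contig like it was at 116, 108 and 32.1 in 1-A, 1-B and 1-C (Mm129086, AT5G14380). It was at 36.2 and 20.5 in code 0, 6.92, 6.79 and 5.49 in code 2 and 1.797, 4.54 and 4.74 in code L. Pectin methylesterase-type contigs, which modify wall pectin, had the same order of libraries in codes 0 and 1, with 132, 127 and 35.4 in code 1 and 37.3 and 25.1 in code 0 for Mm15407, and 131, 126 and 34.7 and 37.03 and 27.3 for Mm32460 (both AT5G27870). Contigs like the SKU5-similar proteins SKS12 and SKS13 were at 109.7, 109 and 30.8 (Mm25084, AT1G55570) and 99.7, 99.6 and 29.5 (Mm25586, AT3G13400) in code 1. A contig described as a pollen Ole e 1 allergen family protein was at 169, 156 and 54.5 (Mm85277, AT1G29140), and 3 contigs of the small membrane protein locus AT2G41905 followed the same order. The contig like phytochrome A, a red and far-red light receptor, was the highest of the 18, at 477, 463 and 159 in code 1 and 118 and 96.9 in code 0 (Mm132196, AT1G09570). In each of these contigs 1-C was closer to code 0 than to 1-A.

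The pollen and tapetum marker list moved with this profile only in part. Of its 32 loci 12 had contigs in the table, 27 contigs in all, and 1 was at 20 or more in all code 1 libraries, the AGP6-like member itself. A second AGP6 contig, no member, was also lowest of code 1 in 1-C, with 65.7, 70.2 and 18.9 in 1-A, 1-B and 1-C and 24.8 and 13.3 in code 0 (Mm23173). The other AGP6 contig did not, with 32.5, 18.5 and 26.4 in 1-A, 1-B and 1-C and 18.5, 24.2 and 27.2 in code 2 (Mm177632). Contigs like MS2 and TKPR2 were higher in code 0 than in code 1, with means of 23.5 and 4.45 (Mm5764) and of 37.2 and 14.3 (Mm41311). The list summed to 282, 255 and 143 in 1-A, 1-B and 1-C, and 211 and 192 in code 0. Of these sums the 3 AGP6 contigs made up 214, 196 and 77.5 in 1-A, 1-B and 1-C and 74.3 and 51.6 in code 0. The fall of the sum in 1-C thus lay in the AGP6 contigs, and the rest of the list did not share it. The list's range was 105 to 166 over the code 2 libraries and 86.5 to 125 over those of code L. Of its other contigs, those like the tapetal enzymes ACOS5, LAP6 and CYP703A2 were at most 5.95 in code 1. The part of pollen or anther RNA in these 18 members was not tested.

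A second profile set 1-B apart. In 27 members 1-B was under 1/2 of both 1-A and 1-C, with medians of 117%, 36.5% and 144% of the code 1 mean in 1-A, 1-B and 1-C. Among libraries outside code 1, 2-C was the highest for 24 of the 27, at a median of 41.5%, against 5.33% in 2-A and 11.2% in 2-B. The contigs like GSTU8, GSTU20 (Mm281501), GAPC2, both pyruvate decarboxylase loci, LBD41, SULTR3;1 and SEED IMBIBITION 2 belonged here. In 0 members was 1-A under 1/2 of both 1-B and 1-C.

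Another profile made 2-B look like a code 1 library. In 16 members 2-B was above 1/2 of the code 1 mean while 2-A and 2-C were each under 1/10 of it. Their median was 77% of the code 1 mean in 2-B, 0.0483% in 2-A and 0.0921% in 2-C. The contig like PTAC17, a protein of the plastid transcription complex, was at 616, 763 and 891 in 1-A, 1-B and 1-C, and at 0.713, 558 and 0.387 in 2-A, 2-B and 2-C (Mm351394, AT1G80480). An aspartyl protease contig was at 505, 278 and 509 in code 1 and 0.917, 406 and 1.41 in code 2 (Mm98138, AT5G10770). A ribosomal protein L31e contig was at 98.9, 143 and 119 and 0.388, 101 and 0.791 (Mm252315, AT4G26230). For these 16 the code 2 mean fell under 1/3 of code 1 with 2 of its 3 libraries each under 1/10 of it, and 2-B itself did not stand below code 1 by that margin.

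**Figure D2:**
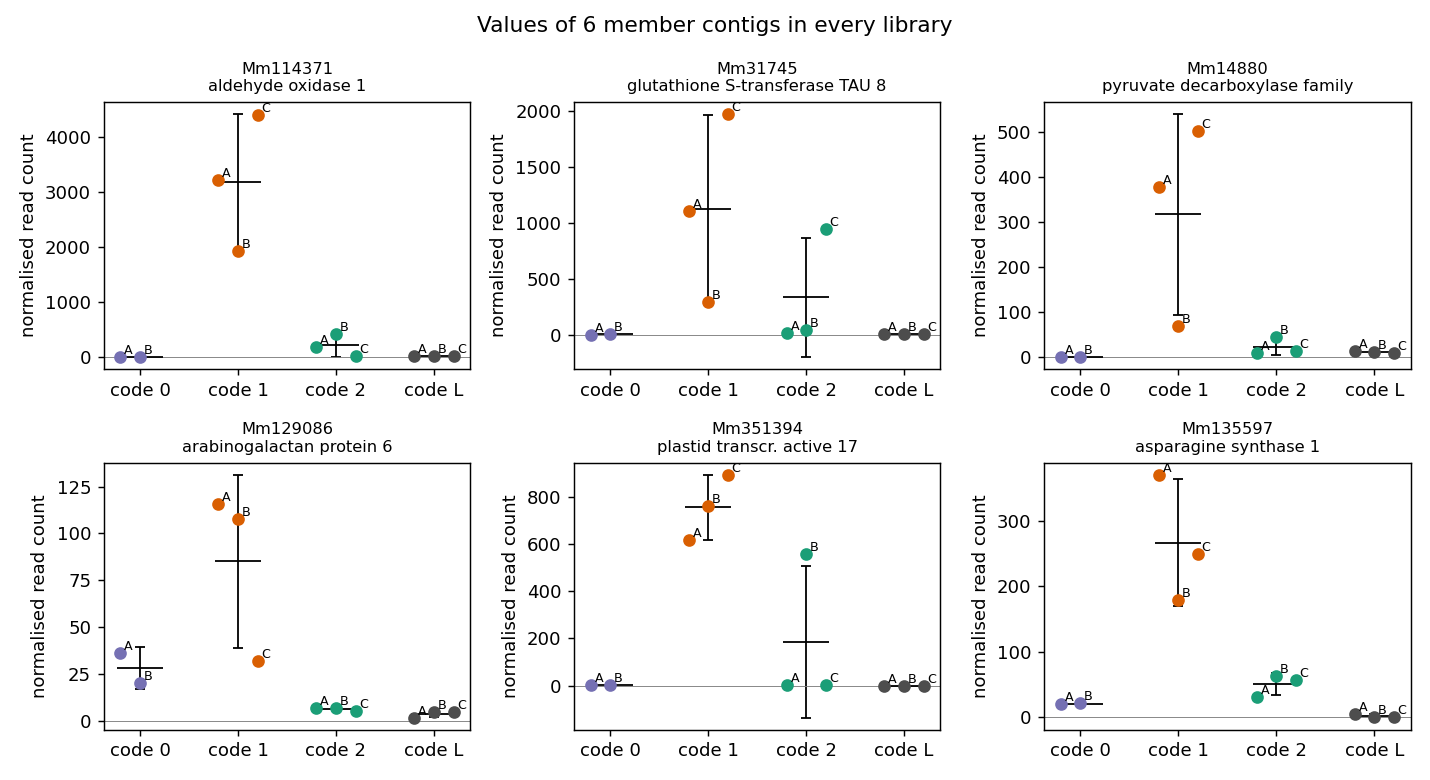
Normalised read counts of 6 member contigs, 1 point per library with its letter, and the mean with its SD (n = 2 in code 0, 3 in the other codes). The AGP6-like contig is low in 1-C (32.1), the GSTU8-like contig is low in 1-B and high in 2-C (945), and the PTAC17-like contig is high in 2-B (558) and near 0 in 2-A and 2-C.

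All contigs of each closest Arabidopsis locus were added up, to ask whether the sum also peaked in code 1. Such a sum can pool contigs of different Melianthus genes with parts of the same gene. Which contigs belong to 1 gene was not tested, so a sum does not stand for a single gene. The 135 annotated members came from 117 loci, with a median of 6 contigs per locus in the table and up to 38. As sums, 46 of the 117 loci met the same rule and 71 did not. The member contigs made up a median of 86.0% of the code 1 sum at the 46 loci and 29.8% at the 71. At 12 loci the sum was higher in another code than in code 1.

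Of the 15 loci behind the contigs with 2-B near code 1, 1 met the rule as a sum. That was PTAC17, whose sums were 647, 788 and 922 in code 1 and 28.3, 589.5 and 22.98 in code 2, with 2-B again near code 1. The L31e locus, with 13 contigs, summed to 769 and 1133 in code 0, 791, 1399 and 1075 in code 1 and 839.9, 1137 and 731 in code 2, and the libraries of these codes overlapped. At the aspartyl protease locus AT5G10770 another contig was at 237, 178 and 1198 in 2-A, 2-B and 2-C (Mm211), and the sum was highest in 2-C. Of the 24 loci with a member low in 1-B, 16 met the rule, and of the 14 with a member low in 1-C, 6 did. Of the 70 loci with a member of none of these profiles, 28 did. A locus whose members had different profiles was counted under each of them. Differences between these shares were not tested.

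Among the loci that met the rule as sums was aldehyde oxidase 1, with 3279, 1978 and 4469 in code 1 and 249, 481 and 61.6 in code 2. ASN1 did so with 1169.7, 481 and 768 and 131, 179 and 379 over 13 contigs. The pyruvate decarboxylase locus AT4G33070 met it too, at 799, 212 and 1071 in code 1, 154 and 172 in code 0 and 187, 241 and 221 in code 2, although 1-B lay below 2-B and 2-C. Pyruvate decarboxylase 2 did not meet the rule, although its mean sum was still highest in code 1 (242, against 206 in code 0). A contig of its locus outside the 140 (Mm158108) was at 126 and 172 in code 0 and was listed at 0 throughout code 1. The locus sums of AT5G54960 were 191 and 219.8 in code 0 and 309, 88.02 and 330.1 in code 1. Alcohol dehydrogenase 1 summed to 1295, 831 and 1839 in code 1 and 1286, 1018 and 985 in code 2, so its member contig did not stand for the locus. The GAPC2 locus likewise summed to 2392 and 2409 in code 0 and 2999, 1678 and 3551 in code 1.

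**Figure D3:**
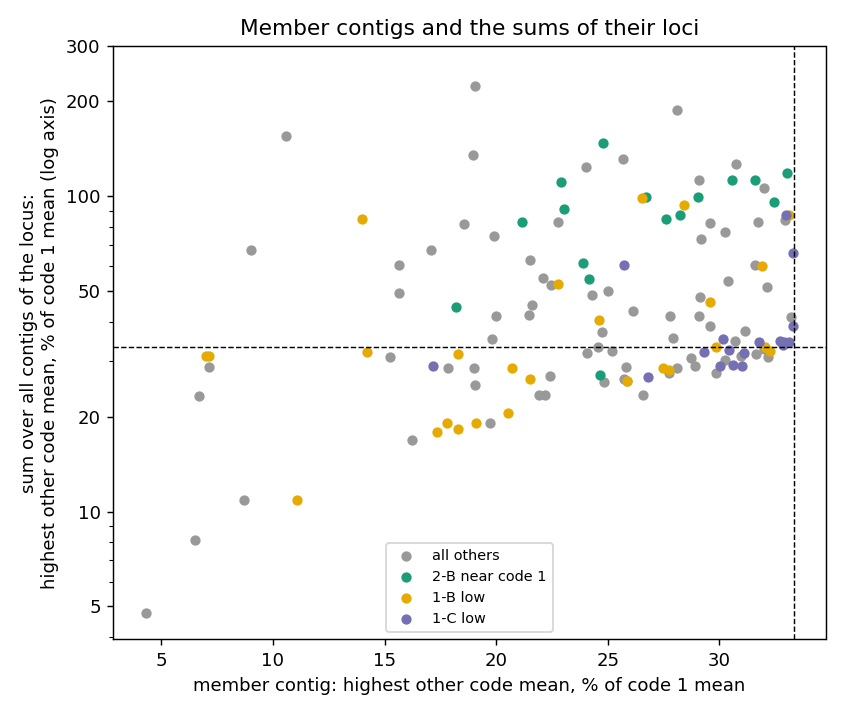
Each point is 1 annotated member contig: the x axis is its highest other code mean as a percentage of its code 1 mean, and the y axis (log) is the same for the sum over all contigs of its locus. Dashed lines mark 1/3, and points above the horizontal line belong to the 71 loci whose sum did not meet the rule, which include 14 of the 15 loci with 2-B near code 1.

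Codes 0, 2 and L were also compared with each other. The rule did not set them against each other, but it capped each of their means against code 1, and the members passed the filter on low values through code 1. Counts and medians over the members are therefore descriptions, and nothing about the members as a set is read from them. In code 2 against code 0, 48 members were called higher in code 2 (34.3%) and 9 lower (6.43%), and 83 were not called. Of all 26053 contigs tested, 11.5% were called higher and 12.5% lower, 24.0% in all, where a call needed a limma adjusted p below 0.05 and a log2 difference of 1 or more in size. The median difference was 1.68 on the log2 scale over the members and 0.05 over all contigs tested. Several members share a locus and are not independent.

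Of the members higher in code 2, the contig like aldehyde oxidase 1, listed at 0 in code 0, had the largest difference (limma, adjusted p = 0.000775). The contig like the beta vacuolar processing enzyme, a cysteine protease of vacuoles, was at 0.028 and 0.061 in code 0 and 12.1, 33.5 and 56.5 in code 2. It rose by 4.83 (SE 0.53; limma, adjusted p = 0.00011; Mm14773, AT1G62710). An HMG-box protein contig rose from 1.202 and 9.096 in code 0 to 76.4, 111 and 252 in code 2, by 4.78 (limma, adjusted p = 0.000362; Mm36904, AT5G23405). This contig made up 9.95% of the code 1 sum of its locus. The locus summed to 86.6 and 167 in code 0 and 1008, 925 and 3065 in code 2. The GSTU8-like contig was higher by 5.29 (SE 1.41; limma, adjusted p = 0.0185; Mm31745). This call was lost without 0-A (5.00), without 0-B (5.57) and with only codes 0 and 2 in the fit (adjusted p = 0.105 by limma). The difference was 3.54 without 2-C and 6.49 without 2-A, with the call kept. All contigs of the GSTU8 locus AT3G09270 together summed to 145 and 170 in code 0 and 378, 349 and 1245 in code 2. The difference of the member contig is thus not that of the locus.

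All 9 members called lower in code 2 than in code 0 belonged to the 18 with 1-C low. The AGP6-like contig fell by 1.94 (SE 0.53; limma, adjusted p = 0.0211; Mm129086), and a pectin methylesterase-type contig fell by 1.98 (limma, adjusted p = 0.0463; Mm32460). An early nodulin-like contig fell by 1.81 (limma, adjusted p = 0.03; Mm169694, AT2G25060) and the phytochrome A-like contig by 1.80 (limma, adjusted p = 0.0461; Mm132196). In these 4 contigs both code 0 values were above all code 2 values. The calls were near the threshold: 0 of the 9 remained without 0-A or without 0-B, and the count of lower calls was 0 to 15 over the settings tried. With the library letter as a replicate block 2 lower calls were made, and Mm32460, Mm169694 and Mm132196 were not called (limma, adjusted p = 0.0715, 0.0532 and 0.0715).

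In code 2 against code L, 73 members were called higher (52.1%) and 0 lower by limma, with 77 in either direction at an unadjusted p under 0.05, against 52.4% higher and 15.1% lower (67.5% in all) over the contigs tested. The median difference was 2.04 over members and 1.18 over all contigs. With median ratio scaling, which moved the median of all contigs to 0.11, 59 members were higher and 3 lower, and the members' median was 1.46. The contig like AT3G10120, a gene of unnamed function, was at 46.9, 53.7 and 89.7 in code 2 and 1.599, 0.354 and 0.079 in code L, a difference of 5.31 (SE 0.36; limma, adjusted p = 9.46e-07; Mm11786). The MRP4-like contig rose from 0.393, 0.123 and 0.252 in code L, by 4.71 (limma, adjusted p = 3.51e-06; Mm9233), and the GAPC2-like contig by 4.64 (limma, adjusted p = 0.000286; Mm1300).

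In code 0 against code L, 39 members were called higher (27.9%) and 17 lower (12.1%), against 49.4% and 13.3% (62.8% in all) of the contigs tested. The median difference was 0.41 over members and 1.08 over all contigs. With median ratio scaling, which set the latter to -0.01, the split turned to 16 higher and 25 lower, and the members' median was 0.03. Of the 18 members with 1-C low, 17 were called higher in code 0 than in code L with the values as deposited. This count cannot hold with median ratio scaling, where 16 of all 140 members were higher. The 18 came from 14 loci and were grouped after their values were seen. The LBD41-like contig was higher by 3.90 (SE 0.90; limma, adjusted p = 0.00306; Mm113423) and the SEED IMBIBITION 2-like contig by 3.96 (limma, adjusted p = 0.00135; Mm4191). Lower in code 0 was a contig of the transporter locus AT5G62680, listed at 0 in code 0 and at 44.5, 17.9 and 42.8 in code L (limma, adjusted p = 0.00381; Mm3299). So was the pyruvate decarboxylase family contig Mm14880 (limma, adjusted p = 0.00274), also listed at 0 in code 0. The sums of its locus AT4G33070 went the other way, with 154 and 172 in code 0 and 40.1, 22.6 and 32.8 in code L. A contig like a tRNA thiolation protein was at 0.235 and 1.51 in code 0 and 28.1, 17.9 and 9.67 in code L, so that code 0 was lower, with a log2 difference of -3.36 (limma, adjusted p = 0.0022; Mm139267, AT3G55570).

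**Figure D4:**
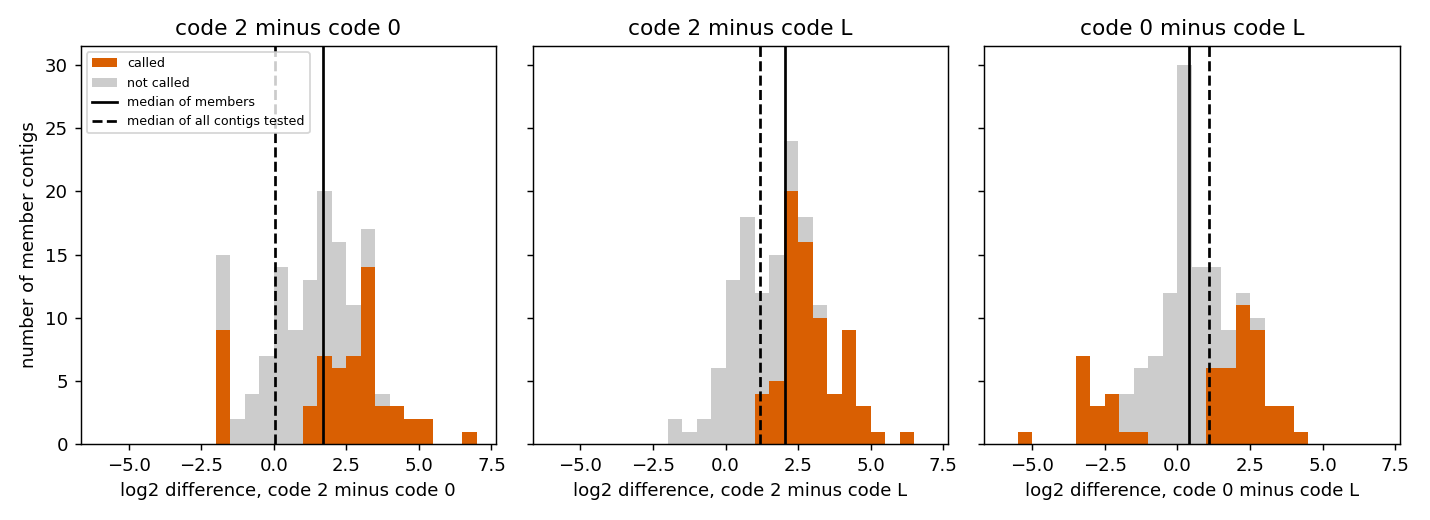
Histograms of the log2 differences of the 140 members in code 2 minus code 0, code 2 minus code L and code 0 minus code L, with contigs called by limma in orange. The members' medians (1.68, 2.04 and 0.41) are solid lines and those of all 26053 contigs (0.05, 1.18 and 1.08) dashed.

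Of the gene lists used, those of nectary and flower development regulators, jasmonate, photosynthesis, senescence, cell division, and vascular, epidermal and stomatal markers held 0 members. Of the first 3 of these lists 35, 27 and 37 contigs were at 20 or more in code 1, and with members at 1.63% of all such contigs, a count of 0 is near that share. Against 11.5% higher and 12.5% lower in code 2 than in code 0 over all contigs tested, the sugar export and cleavage list had 16 of 58 higher and 6 lower by limma. In the pollen and tapetum list 0 of 7 were higher and 2 lower, too few contigs to set against those shares. A group of 1006 contigs, equally high in code 1 and low in codes 0 and L but above 1/3 of code 1 in code 2, was far larger than the 140. Cell wall proteins were 3.08% of that group against 8.57% of the members, and cytochrome P450 enzymes were 1.69% against 0 members, shares given without a test. Cytochrome P450 enzymes were 0.29% of all contigs at 20 or more in code 1, and 0 of 140 members is near that share.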

How the data were processed

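RNA was extracted with a commercial kit, treated with DNase and sequenced as paired reads, per the labels' protocols. Kallisto 0.46.1 was used, per the submitters' processing notes. The values are a signal that the authors deposited as normalised read counts, per the file headers; the scaling, the contig assembly and the choice of contigs listed are not given in the sources used here. They are not whole and their totals differ, so no count test was used. A listed 0 can stand for an estimate that failed.

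Members were found by the rule in the opening, and the members, lists and classes were chosen with earlier results of these data known. Groups are library codes. Contigs at 10 or more in at least 2 libraries (26053; all 140 members, through code 1) were tested in R 4.3.3 by limma 3.58.1 on log2(value + 1), using an intensity trend for the variance prior, all 11 libraries in 1 fit, two-sided, with Benjamini-Hochberg adjustment over all contigs tested. The procedure was tested on simulated data. Log2 differences understate the change of low contigs. Comparisons share libraries and are not independent. The labels do not tie the libraries of a code to different plants, and the p-values cover the spread among libraries alone, which may be technical. Named contigs followed a rule (annotated, 1 per locus): the 12 highest members, the 8 largest ratios, up to 3 per list or class, up to 4 called per comparison and direction without overlap, those beside each threshold, and the highest contigs of the 6 loci with most members. All other contigs named were chosen after their values were seen. The library profiles were also defined after seeing the values. Classes came from words in the Arabidopsis descriptions. Pseudocount, filter, scaling, samples, block, weights and single libraries were varied. Figures used matplotlib 3.10.9 in Python 3.11.15.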

Additional observations from a re-analysis of the deposited data

How the results depend on the processing

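The number of contigs that met the rule moved from 140 to 237 with a level of 10, 53 with 50, 366 with a ratio of 1/2, 35 with 1/5, and 34 with the highest library of each other code in place of its mean. It was 49 loci for sums over loci (46 of them member loci), and 49 contigs (37 of the 140) with libraries grouped by filed tissue and stage. It was 117 at equal totals and 103 with median ratio scaling. Leaving out 1 library gave 96 (without 2-A) to 248 (without 2-C), and 226 without 1-B. Members called numbered 25 to 68 in code 2 against 0 when a library was left out (25 with 0-A left out and 27 with 0-B left out, the remaining code 0 library being assumed to vary like the other codes; the cause was not tested), 61 to 85 in code 2 against L and 39 to 67 in code 0 against L. In the other settings these counts were 39 to 76, 49 to 87 and 41 to 68. The counts of 39 and 49 came with a filter of 50, which left 97 of the 140 members tested. Lower calls in code 2 against 0 numbered 9 as reported, 4 with a pseudocount of 0.1 or no filter, 3 with median ratio scaling, 0 with library weights and 15 with only the codes compared in the fit. Of 379 repeats of the 20 named comparisons under other settings, 342 kept the call, 37 lost it and 0 reversed; 15 of the 20 never lost it, and those that did were in code 2 against 0.

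With the library letter as a replicate block, 49, 74 and 62 members were called in place of 57, 73 and 56, and lower calls in code 2 against 0 went from 9 to 2. Nothing in the labels says that a letter marks a shared plant or day, and deviations of libraries with the same letter correlated at -0.126 to 0.236 (8 of 15 pairs over 0.1), against -0.345 to 0.246 for other pairs.

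Code 0 has 2 libraries, the depth in reads is unknown, and 71 of 117 loci did not meet the rule as sums. Median ratio scaling moved the median over all contigs from 1.18 to 0.11 in code 2 against L and from 1.08 to -0.01 in code 0 against L.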
